A study of Mus musculus with 20 samples.

Results

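The genes described here are 40 type I interferon response genes, chosen by symbol from a list and not by their values in these data, although the list was drawn up with earlier results of the data known. All 40 symbols were among the 24421 genes counted, and all 40 were among the 13960 genes that passed the filter on low counts. The study sequenced total RNA of macrophages from the borders of the mouse brain, from the brain itself and from the peritoneal cavity, to compare the populations. All 20 libraries came from C57BL/6JRj mice, and the labels give no treatment, age or sex. There were 5 groups of 4 libraries: microglia, macrophages of the choroid plexus (the tissue that secretes cerebrospinal fluid), peritoneal macrophages, and 2 groups of macrophages from the dura, the tough outer covering of the brain, with much or little MHC class II. The dura group with little is titled "int" but has "lo" in its cell type label, and MHC II-low is used for it below. Neither the isolation of the cells nor separate animals behind the replicates are stated in the labels, so a p-value reflects how these libraries vary, and that variation may be technical.

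Type I interferons are secreted proteins that cells release on sensing viral or misplaced nucleic acid. They bind the receptor chains IFNAR1 and IFNAR2, whose kinases JAK1 and TYK2 start a signal that passes through STAT2 and IRF9. These are parts of a complex that binds the interferon-stimulated response element, a DNA motif in front of many antiviral genes, and a low level of this signalling is known to be present in healthy macrophages. In microglia the programme is known to be raised by infection, ageing and disease.

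Levels are given in CPM, the counts of a gene per 1e+06 gene counts of the library after TMM adjustment of its size. Replicates are listed in the order 1, 2, 3 and 4, and those of microglia, whose titles skip a number, in the order 1, 3, 4 and 5. A member is called higher or lower where the adjusted p is under 0.05 and the change is at least 2-fold, and values with ± in the comparisons are log2 fold changes of the first-named population over the second with their standard errors. In bulk samples such as these, fewer cells of a type and less RNA per cell cannot be told apart. Libraries held 13383274 to 32611875 gene counts, so that 3 counts correspond to 0.0964 to 0.222 CPM. Most defining markers followed the labels. The microglial gene Tmem119 was at 4375 to 6125 CPM in microglia and at 974 CPM or less elsewhere. The border macrophage gene Mrc1 was at 1683 to 4693 CPM in the dura and choroid plexus and at 62.2 CPM or less elsewhere. The 4 peritoneal markers summed to 2581 to 3000 CPM in peritoneal macrophages and to at most 16.01 CPM elsewhere. Of the 5 border macrophage markers, 1 went against its label. It was called higher in peritoneal than in border macrophages, where the other 4 were called lower (11.4% and 21.6% of all genes). Microglia 3 also carried transcripts of choroid plexus epithelium, with Ttr, a thyroid hormone carrier made there, at 9725 CPM against 45.01 to 338 CPM in the other microglia.

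Summed over the 40 genes, the interferon response was lowest in 3 of the 4 microglia libraries. Microglia 1, 3 and 4 had summed levels of 1198, 1008 and 1168 CPM, and microglia 5 had 5249 CPM. MHC II-high dura libraries had 10804, 4313, 7173 and 7616 CPM, and MHC II-low dura libraries 9865, 4717, 7191 and 7874 CPM. Choroid plexus libraries lay close together, at 5366, 5324, 5797 and 6079 CPM. Peritoneal libraries fell into a pair at 7357 and 7959 CPM (replicates 1 and 4) and a pair at 3505 and 3375 CPM (replicates 2 and 3). Microglia 1, 3 and 4 were thus below all 16 libraries of the other populations, and microglia 5 lay among them, above 4 of the 16. The group means were 7476.5 ± 2658 CPM (SD, n = 4) for MHC II-high dura, 7412 ± 2125 CPM for MHC II-low dura, 5642 ± 362 CPM for choroid plexus, 5549 ± 2448 CPM for peritoneal macrophages and 2156 ± 2064 CPM for microglia. Without microglia 5 the microglial mean was 1125 ± 102 CPM (n = 3). Abundant genes weigh most in these sums: Lgals3bp alone was at 2018 CPM in microglia 5. On the mean of log2(CPM + 0.5) over the members, microglia 5 (5.76) was above only peritoneal 2 (5.02) and 3 (5.17). Microglia 1, 3 and 4 (3.62, 3.36 and 3.66) were again below all 16. On that scale choroid plexus libraries were at 6.50 to 6.69 and peritoneal libraries at 5.02 to 6.58.

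**Figure D1:**
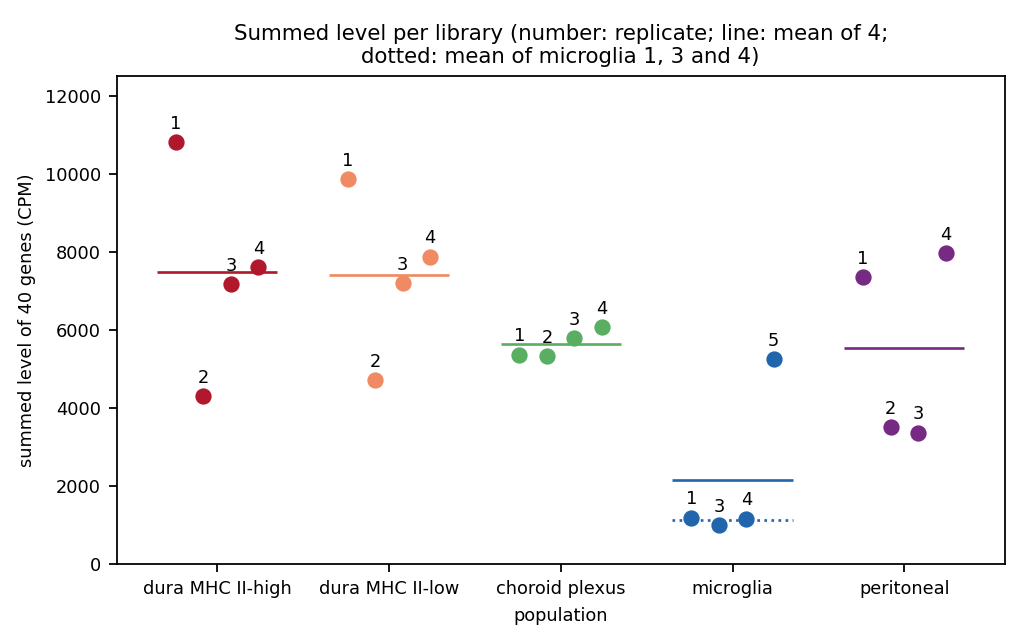
Summed level of the 40 interferon response genes in each of the 20 libraries, in CPM on a linear axis, by population. Points are libraries numbered by replicate, solid lines are means of 4 and the dotted line is the mean of microglia 1, 3 and 4; microglia 5 sits at 5249 CPM while the other 3 sit between 1008 and 1198 CPM.

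Against microglia, every member with a call was higher in the other population. In the choroid plexus 21 of the 40 were called higher, where 12.1% of all genes tested were. In MHC II-high dura 33 were called higher, against 15.7% of all genes, and in MHC II-low dura 33, against 13.8%. In peritoneal macrophages 17 were called higher, against 18.9%. None of the 40 was called lower in any of these 4 comparisons, where 7.11% (choroid plexus), 12.2% (MHC II-high dura), 12.7% (MHC II-low dura) and 25.7% (peritoneal) of all genes were, and none had an unadjusted p under 0.05 in that direction. With DESeq2 the counts called higher were 23, 34, 33 and 17, again with none lower.

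The median log2 fold change of the members was 1.74 in the choroid plexus, 2.54 in MHC II-high dura, 2.46 in MHC II-low dura and 0.94 in peritoneal macrophages. Over all genes tested the medians were 0.09, 0.02, 0.02 and -0.11. The 4 comparisons share the microglia libraries, so they do not support each other. Without microglia 5 the members called higher were 36 in the choroid plexus, 37 in each dura population and 28 in peritoneal macrophages, with none lower, where 10.6%, 14.0%, 12.4% and 18.0% of all genes were called higher. The medians without it were 3.21, 3.80, 3.72 and 1.82. The plot of fold changes with and without that library shows the shift gene by gene.

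**Figure D2:**
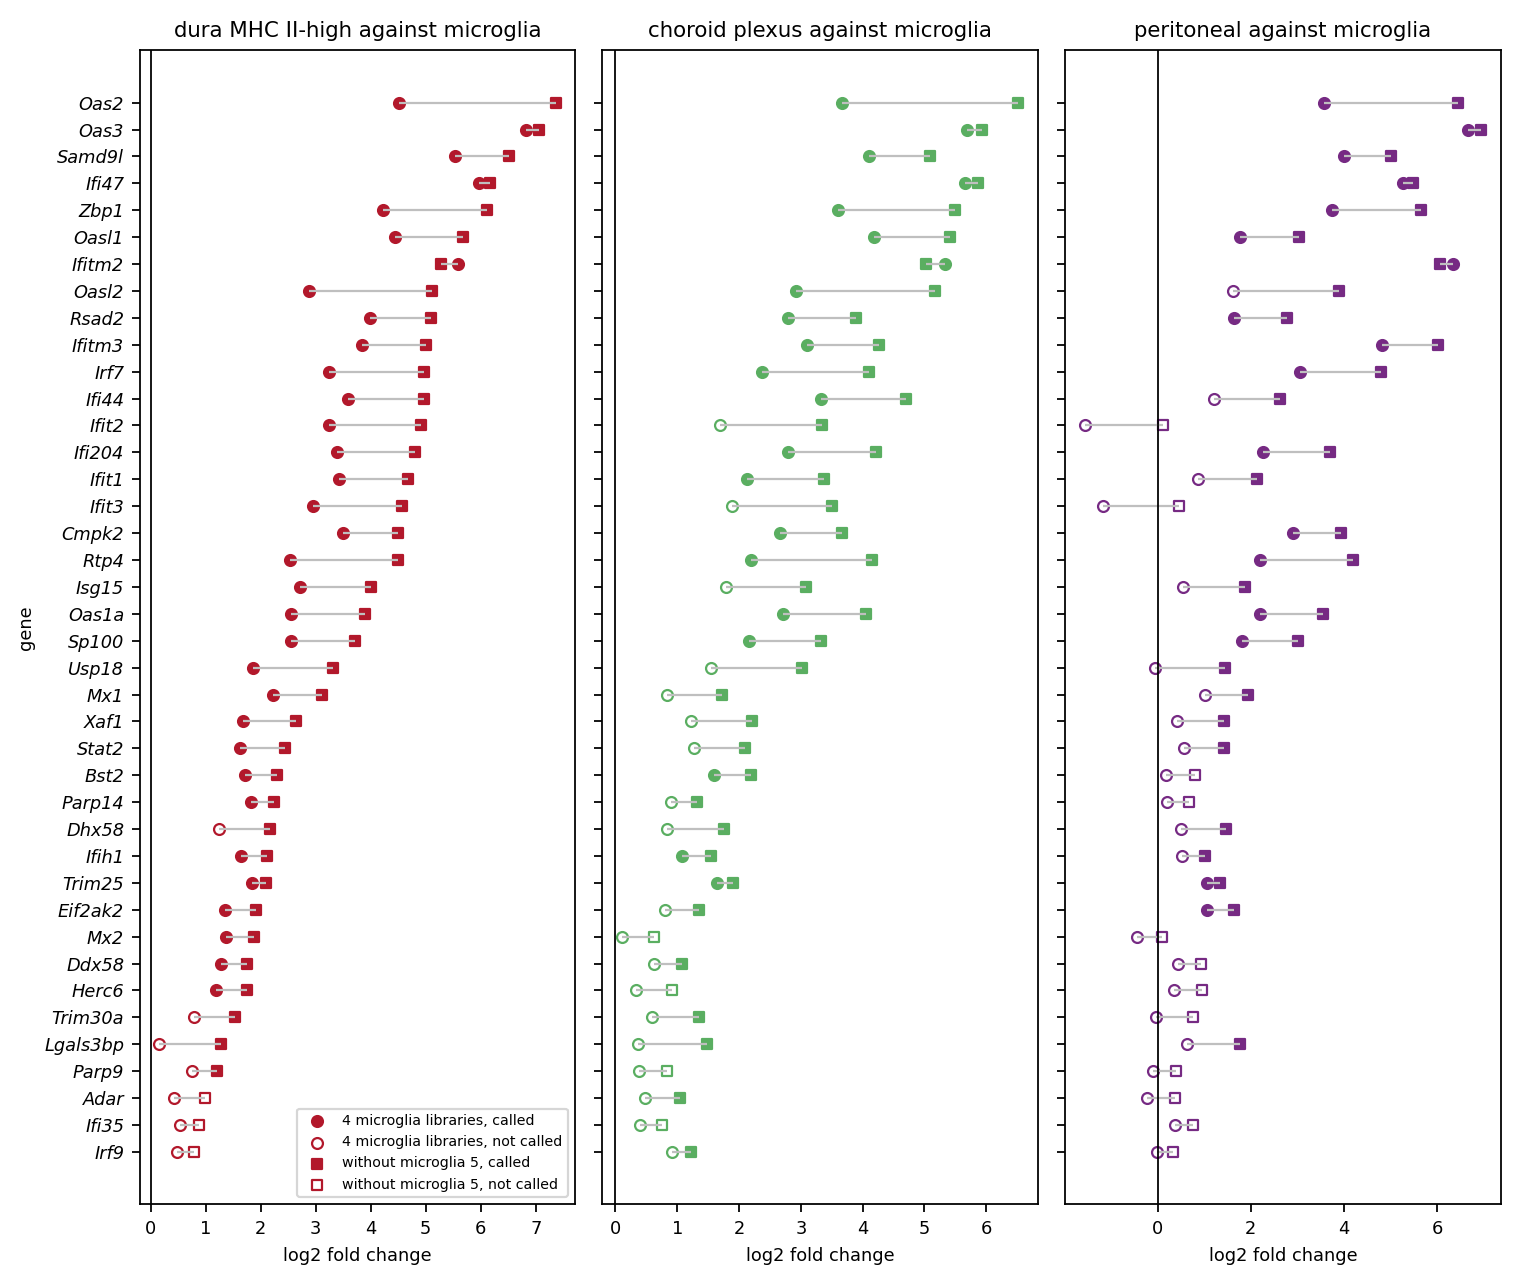
Log2 fold change of each of the 40 genes against microglia in MHC II-high dura, choroid plexus and peritoneal macrophages, from all 4 microglia libraries (circles) and without microglia 5 (squares), with filled symbols for called genes. The line joins both values of a gene; Oas2, Oasl2 and Rtp4 move far to the right without microglia 5, while Oas3, Ifi47 and Ifitm2 barely move.

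All 4 libraries were above all 4 of microglia for 23 members in the choroid plexus, 22 in MHC II-high dura, 25 in MHC II-low dura and 9 in peritoneal macrophages, where 25.1%, 26.7%, 25.4% and 28.3% of all genes did so. Against microglia 1, 3 and 4 alone, this held for 40, 40, 39 and 24 members, against 26.9%, 28.2%, 27.1% and 29.5% of all genes. The 1 member that overlapped in MHC II-low dura was Ifi35, at 45.9 to 90.9 CPM there and at 33.3 to 46.4 CPM in the 3 microglia libraries. By group mean, 32 of the 40 members were lowest in microglia and 8 in peritoneal macrophages. The highest mean was in MHC II-high dura for 20 members, in MHC II-low dura for 13, in the choroid plexus for 4 and in peritoneal macrophages for 3.

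**Figure D3:**
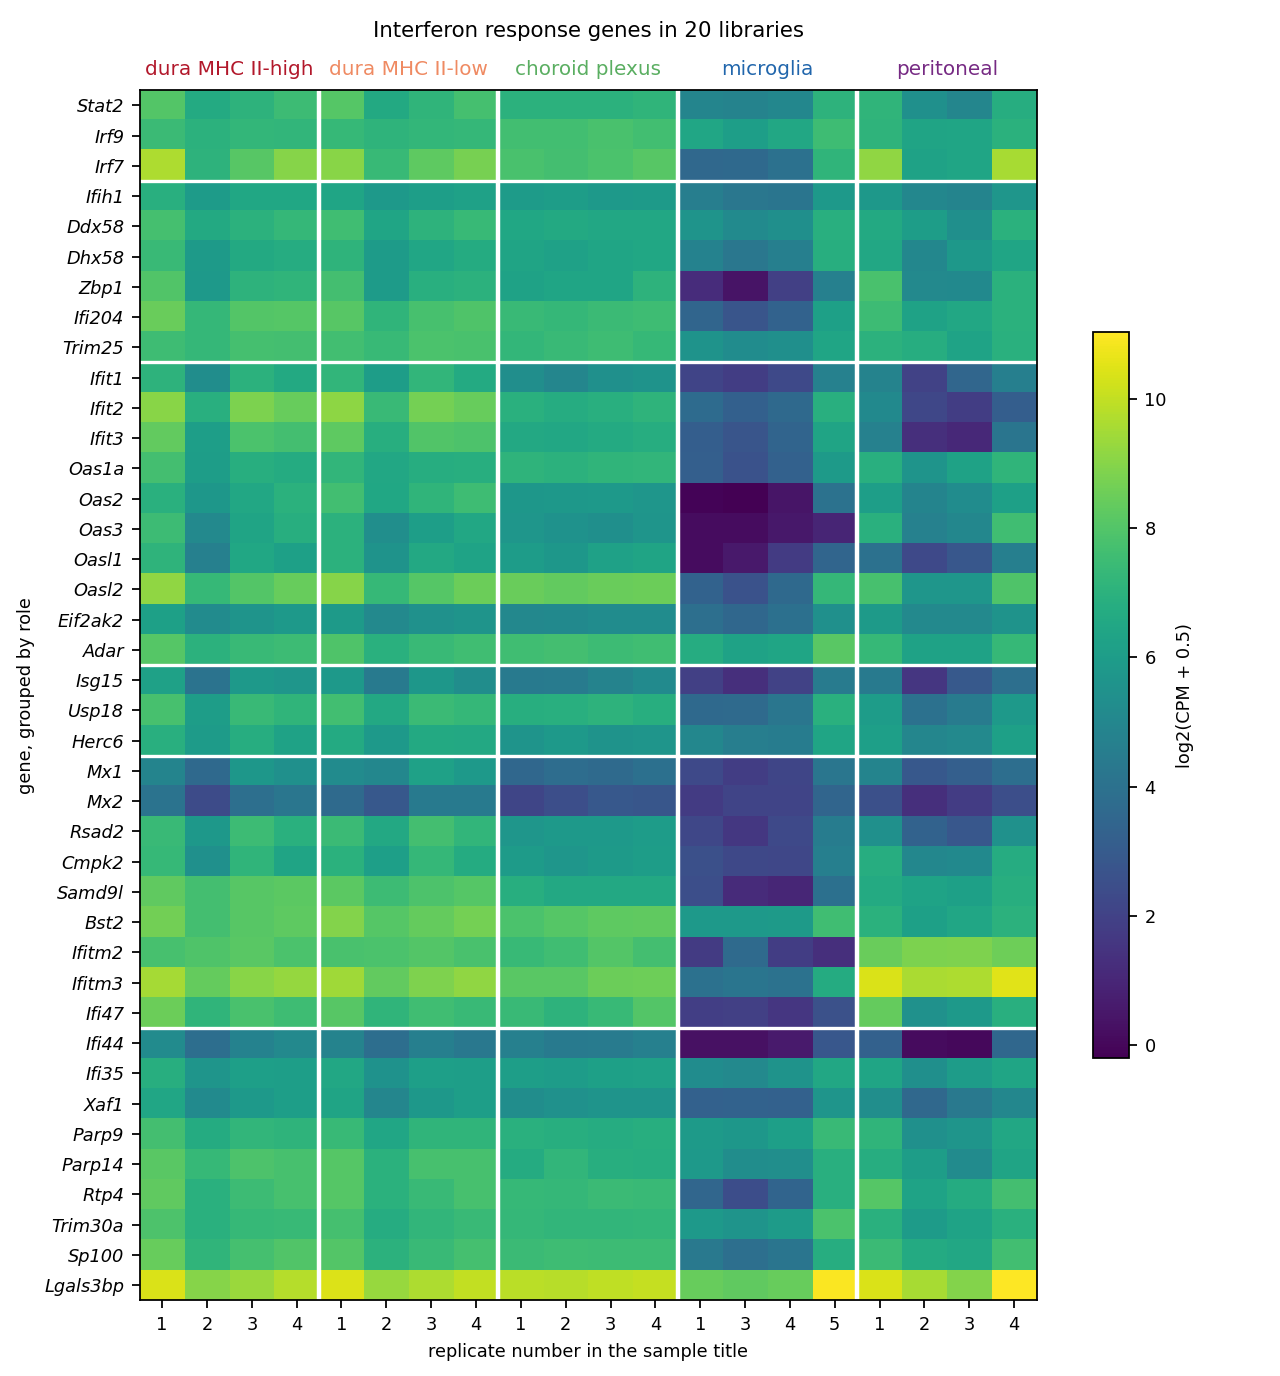
Levels of the 40 genes (rows, grouped by role) in the 20 libraries (columns, by population and replicate number) as log2(CPM + 0.5). Microglia 1, 3 and 4 are dark for most genes, microglia 5 is lighter for most of them, and replicate 2 is the darkest column of both dura populations for 39 of the 40 genes.

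The promoters of the members were searched for the response element. The RefSeq promoter table (mouse build GRCm38.p6, from 250 bases before to 50 after the start) held 30 of the 40 members. It did not hold Dhx58, Zbp1, Ifi204, Oas2, Usp18, Mx1, Mx2, Parp9, Parp14 and Rtp4. A core of the response element, GAAA followed by any 2 bases and GAAA again, was searched on both strands with overlaps allowed, and 14 of the 30 members had it (46.7%) against 1079 of 27025 genes in the table (3.99%). The letters TTCNNNGAA, the gamma-activated site, were in 7 of the 30 (23.3%) against 9.55% of all genes. A match describes the letters only. With 1 mismatch allowed, 28 and 26 of the members matched, but so did 38.9% and 74.2% of all genes. Shown here are 7 of the members with a match within 160 bases before the start and outside annotated exons, to let the arrangement of the matches be compared. Matches to the core on either strand are in capitals, and positions count back from the start.
Isg15 (chr4:156200819-156200978, minus strand, -160 to -1): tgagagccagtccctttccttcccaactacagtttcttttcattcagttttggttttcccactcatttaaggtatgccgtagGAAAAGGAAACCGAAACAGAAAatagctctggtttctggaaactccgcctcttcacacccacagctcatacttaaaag
Ifit3 (chr19:34583369-34583528, plus strand, -160 to -1): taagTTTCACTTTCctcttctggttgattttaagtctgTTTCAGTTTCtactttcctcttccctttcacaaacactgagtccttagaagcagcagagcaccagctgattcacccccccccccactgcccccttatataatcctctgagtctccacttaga
Oas1a (chr5:120907526-120907685, minus strand, -160 to -1): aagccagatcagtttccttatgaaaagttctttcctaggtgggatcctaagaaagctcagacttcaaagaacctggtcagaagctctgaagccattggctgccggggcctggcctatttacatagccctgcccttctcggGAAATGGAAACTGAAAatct
Rsad2 (chr12:26456453-26456612, minus strand, -160 to -1): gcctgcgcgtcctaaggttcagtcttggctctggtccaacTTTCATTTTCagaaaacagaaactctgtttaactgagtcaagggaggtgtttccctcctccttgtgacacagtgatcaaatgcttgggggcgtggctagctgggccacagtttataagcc
Bst2 (chr8:71537473-71537632, minus strand, -160 to -1): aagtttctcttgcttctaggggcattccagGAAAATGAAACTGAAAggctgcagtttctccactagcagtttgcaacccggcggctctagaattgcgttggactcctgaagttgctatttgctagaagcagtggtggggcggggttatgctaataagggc
Ifitm2 (chr7:140955988-140956121, minus strand, -160 to -27): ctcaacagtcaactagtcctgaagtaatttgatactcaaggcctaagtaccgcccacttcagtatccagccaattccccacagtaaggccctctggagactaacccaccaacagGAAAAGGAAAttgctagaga
Trim30a (chr7:104465194-104465353, minus strand, -160 to -1): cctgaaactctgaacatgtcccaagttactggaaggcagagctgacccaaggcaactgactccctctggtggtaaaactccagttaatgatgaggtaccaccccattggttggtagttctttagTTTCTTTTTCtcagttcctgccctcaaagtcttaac
Overlapping matches form 1 run in Isg15, with 3 matches from -78, in Oas1a, with 2 from -20, and in Bst2, with 2 from -130. In Ifit3 both matches are on the other strand, at -156 and -122. The remaining 7 members with the core were Stat2, Ifih1, Ddx58, Ifit1, Oas3, Eif2ak2 and Ifitm3.

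Of the 3 signalling members, Stat2 and Irf9 encode parts of the complex that carries the interferon signal, and Irf7 encodes the factor that drives interferon-alpha genes and amplifies the response. Irf7 varied most. Irf7 was at 791, 133, 276 and 508 CPM in MHC II-high dura and at 518, 163, 298 and 419 CPM in MHC II-low dura. Irf7 was at 223, 201, 231 and 276 CPM in the choroid plexus. Microglia had 11.7, 11.8, 15.2 and 141 CPM of Irf7, and peritoneal macrophages 566, 77.2, 82.9 and 759 CPM. Microglia 1, 3 and 4 were below every other library, microglia 5 was 11.9 times the median of those 3 and overlapped with the other populations, and peritoneal 1 and 4 stood apart from 2 and 3. Irf7 was called higher than in microglia in all 4 populations, with log2 fold changes of 3.25 ± 0.93 (adjusted p = 0.00779) in MHC II-high dura, 2.37 ± 0.90 (adjusted p = 0.0444) in the choroid plexus and 3.05 ± 0.93 (adjusted p = 0.00794) in peritoneal macrophages. The choroid plexus call was lost when any of 13 libraries was left out.

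Stat2 was at 257, 101, 134 and 179 CPM in MHC II-high dura and at 269.9, 98.3, 143 and 209.7 CPM in MHC II-low dura. Stat2 was at 130.0, 128, 131 and 142 CPM in the choroid plexus. Microglia had 29.5, 27.5, 31.4 and 131 CPM of Stat2, and peritoneal macrophages 142, 42.5, 30.03 and 111 CPM. Stat2 in microglia 1, 3 and 4 was at the level of peritoneal 3, and below every other library. It was called higher than in microglia in MHC II-high dura (1.62 ± 0.56, adjusted p = 0.0225) and MHC II-low dura (1.72 ± 0.56, adjusted p = 0.0175). The choroid plexus value did not pass (1.28 ± 0.56, adjusted p = 0.0762), and did so without microglia 5 (2.10 ± 0.49, adjusted p = 0.00268). Irf9 had the narrowest range of the 3, from 68.6 to 220 CPM over the 20 libraries. Its 4 choroid plexus libraries (195 to 220 CPM) were all above the 8 dura libraries (127 to 174 CPM), although the difference missed the threshold (0.43 ± 0.19, adjusted p = 0.0954) and, without microglia 5, passed on p but not on size (0.43 ± 0.13, adjusted p = 0.0125).

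The 6 sensors and their helpers recognise viral nucleic acid: Ddx58 (RIG-I), Ifih1 (MDA5) and Dhx58 (LGP2) bind double-stranded RNA, Zbp1 binds Z-form nucleic acid, Ifi204 belongs to a family of DNA sensors, and Trim25 is a ubiquitin ligase that activates RIG-I. Against microglia 4 of the 6 were called higher in the choroid plexus, 5 in each dura population and 3 in peritoneal macrophages, and all 6, 6, 6 and 5 without microglia 5. The shares of all genes were 12.1%, 15.7% (MHC II-high), 13.8% (MHC II-low) and 18.9%, and 10.6%, 14.0%, 12.4% and 18.0% without microglia 5. Ifi204 was the most abundant by mean CPM. Ifi204 was at 354, 156, 258 and 264 CPM in MHC II-high dura and at 276, 143, 219.5 and 247 CPM in MHC II-low dura. Ifi204 was at 170.1, 155, 174 and 186 CPM in the choroid plexus. Microglia had 10.5, 6.297, 9.61 and 72.3 CPM of Ifi204, and peritoneal macrophages 178, 77.8, 92.5 and 123 CPM. Each of these 16 libraries was above every microglia library, microglia 5 included. Its log2 fold changes ran from 2.26 ± 0.59 (adjusted p = 0.00287) in peritoneal macrophages to 3.39 ± 0.62 (adjusted p = 0.000208) in MHC II-high dura. Ifi204 has close relatives in a gene cluster, so reads can be split between them.

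Zbp1 was low in microglia, at 1.82, 0.803, 3.30 and 25.3 CPM, against 33.2 to 253 CPM in the other 16 libraries. Its log2 fold changes against microglia were 3.61 ± 0.89 in the choroid plexus (adjusted p = 0.00358), 4.23 ± 0.91 in MHC II-high dura (adjusted p = 0.000920) and 3.74 ± 0.89 in peritoneal macrophages (adjusted p = 0.00142). Ifih1 had the lowest mean CPM of the group. Ifih1 was at 118, 62.6, 90.4 and 89.9 CPM in MHC II-high dura and at 84.8, 58.8, 68.5 and 74.03 CPM in MHC II-low dura. Ifih1 was at 61.9, 65.2, 58.5 and 59.7 CPM in the choroid plexus. Microglia had 23.8, 18.7, 17.5 and 55.9 CPM of Ifih1, and peritoneal macrophages 55.04, 31.5, 28.6 and 50.8 CPM. Only microglia 5, at 55.9 CPM, reached the range of the other populations. Ifih1 was called higher in MHC II-high dura (1.64 ± 0.31, adjusted p = 0.000241), in MHC II-low dura (1.31 ± 0.31, adjusted p = 0.00189) and in the choroid plexus (1.08 ± 0.31, adjusted p = 0.00867), not in peritoneal macrophages (0.52 ± 0.31, adjusted p = 0.14). Trim25 was called higher in all 4 populations, by log2 fold changes from 1.06 ± 0.21 in peritoneal macrophages (adjusted p = 0.000139) to 1.94 ± 0.21 in MHC II-low dura (adjusted p = 2.28e-07). Ddx58 ranged from 35.9 to 209 CPM and Dhx58 from 18.3 to 170 CPM over the 20 libraries.

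The 10 RNA-directed effectors bind, edit or cut foreign RNA or stop its translation. They are the Ifit proteins, which bind viral RNA ends, the oligoadenylate synthetases and their relatives, which switch on RNase L or otherwise restrain viruses, the kinase gene Eif2ak2 (PKR) and the RNA editor Adar. Against microglia 6 of the 10 were called higher in the choroid plexus, 9 in each dura population and 5 in peritoneal macrophages, and 10, 9, 9 and 7 without microglia 5. Over all genes, 12.1%, 15.7% (MHC II-high), 13.8% (MHC II-low) and 18.9% were called higher, and 10.6%, 14.0%, 12.4% and 18.0% without microglia 5. With all libraries, the largest difference of the 40 members from microglia was that of Oas3, an oligoadenylate synthetase, in each of the 4 populations. Oas3 was at 179.9, 33.5, 80.8 and 115 CPM in MHC II-high dura and at 127, 40.2, 67.2 and 92.01 CPM in MHC II-low dura. Oas3 was at 50.7, 45.1, 41.2 and 50 CPM in the choroid plexus. Microglia had 0.627, 0.617, 0.926 and 1.45 CPM of Oas3, and peritoneal macrophages 121, 26.2, 31.4 and 189.7 CPM. Every microglia library, microglia 5 included, was under 1.5 CPM, and all others were at 26.2 CPM or more. The log2 fold change was 6.82 ± 0.81 (adjusted p = 2.19e-06) in MHC II-high dura, 6.49 ± 0.80 (adjusted p = 4.02e-06) in MHC II-low dura, 5.69 ± 0.79 (adjusted p = 1.95e-05) in the choroid plexus and 6.67 ± 0.81 (adjusted p = 1.43e-06) in peritoneal macrophages. Without microglia 5 these were 7.06, 6.73, 5.93 and 6.94, and Oas2 was larger in both dura populations and the choroid plexus.

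Oas2, its neighbour on chromosome 5 (mm10 chr5:120730333-120749853, minus strand, with Oas3 at chr5:120753098-120777661), behaved differently within microglia. Oas2 was at 122, 53.02, 91.2 and 126 CPM in MHC II-high dura and at 196, 90.1, 142 and 188 CPM in MHC II-low dura. Oas2 was at 53.5, 55.1, 57.97 and 52.04 CPM in the choroid plexus. Microglia had 0.439, 0.3704, 0.868 and 15.8 CPM of Oas2, and peritoneal macrophages 67.1, 28.4, 37.7 and 71.9 CPM. Microglia 5 stood far above the other 3 microglia libraries, and below all 16 libraries of the other populations. The log2 fold change in MHC II-high dura was 4.51 ± 0.81 (adjusted p = 0.00018) with all libraries, and 7.36 ± 0.53 (adjusted p = 4.21e-09) without microglia 5. In MHC II-low dura it was 5.17 ± 0.83 (adjusted p = 6.69e-05), and 8.01 ± 0.53 (adjusted p = 1.79e-09) without microglia 5. In the choroid plexus it was 3.67 ± 0.79 (adjusted p = 0.00124), and in peritoneal macrophages 3.58 ± 0.79 (adjusted p = 0.00071). Oas1a, whose promoter run is shown above, was at 65.9 to 206 CPM in the dura, 128.5 to 144 CPM in the choroid plexus, 48.9 to 141 CPM in peritoneal macrophages and 5.62 to 9.26 CPM in microglia 1, 3 and 4. It was at 60.3 CPM in microglia 5. It belongs to a cluster of near-identical copies, so its reads may be split.

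Oasl1 and Oasl2 encode synthetase-like proteins. Oasl1 was at 137, 25.5, 88.99 and 71.8 CPM in MHC II-high dura and at 130.3, 47.05, 94.4 and 77.8 CPM in MHC II-low dura. Oasl1 was at 63.5, 53.5, 73.7 and 80.6 CPM in the choroid plexus. Microglia had 0.627, 0.988, 2.84 and 10.6 CPM of Oasl1, and peritoneal macrophages 15.4, 4.34, 6.66 and 24.4 CPM. For Oasl1 the lowest border library was just above the highest peritoneal one, and microglia 5 was within the peritoneal range. Oasl1 was higher than in microglia in the choroid plexus (4.18 ± 0.76, adjusted p = 0.000295) and in MHC II-high dura (4.44 ± 0.77, adjusted p = 0.00013). Oasl2 was at 573, 160.3, 260.4 and 343 CPM in MHC II-high dura and at 509.9, 159, 264 and 364 CPM in MHC II-low dura. Oasl2 was at 349.9, 319.8, 352 and 368 CPM in the choroid plexus. Microglia had 9.65, 5.68, 12.1 and 156 CPM of Oasl2, and peritoneal macrophages 219, 51.9, 50.7 and 241 CPM. For Oasl2, microglia 5 was 16.2 times the median of the other 3 and lay above peritoneal 2 and 3 and just below replicate 2 of both dura populations. Oasl2 was called higher in the choroid plexus (2.93 ± 0.90, adjusted p = 0.0147) and in MHC II-high dura (2.87 ± 0.90, adjusted p = 0.0129). In peritoneal macrophages it was not called (1.62 ± 0.86, adjusted p = 0.104), but was without microglia 5 (3.90 ± 0.67, adjusted p = 9.17e-05).

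Ifit2 and Ifit3 had the largest differences of the 40 between border and peritoneal macrophages. Ifit2 was at 529.9, 116, 443 and 337 CPM in MHC II-high dura and at 549, 171, 409 and 346 CPM in MHC II-low dura. Ifit2 was at 123, 106, 116 and 136 CPM in the choroid plexus. Microglia had 12.8, 9.01, 12.04 and 116 CPM of Ifit2, and peritoneal macrophages 35, 4.01, 3.07 and 8.36 CPM. For Ifit2 all peritoneal libraries were below the 12 border libraries, and 3 of the 4 were also below microglia 1, 3 and 4. Ifit3 was at 320.5, 68.5, 227 and 206 CPM in MHC II-high dura and at 299, 114, 249.6 and 238 CPM in MHC II-low dura. Ifit3 was at 94.4, 92.5, 100.2 and 109 CPM in the choroid plexus. Microglia had 8.53, 6.24, 10.1 and 82.01 CPM of Ifit3, and peritoneal macrophages 26.2, 2.004, 1.66 and 17.3 CPM. Ifit3 separated the same way, with peritoneal 2 and 3 below microglia 1, 3 and 4. Ifit1 was at 135, 39.3, 127 and 96.4 CPM in MHC II-high dura and at 144, 65.7, 148 and 99.9 CPM in MHC II-low dura. Ifit1 was at 40.3, 30.8, 42.3 and 47.6 CPM in the choroid plexus. Microglia had 3.76, 3.02, 4.34 and 25.97 CPM of Ifit1, and peritoneal macrophages 28.02, 3.498, 10.8 and 24.7 CPM. For Ifit1 the highest peritoneal library was just below the lowest border library, in the choroid plexus. Against the border macrophages, peritoneal macrophages were lower for Ifit2 (-4.31 ± 0.88, adjusted p = 0.000426), Ifit3 (-3.82 ± 0.87, adjusted p = 0.00109), Ifit1 (-2.20 ± 0.60, adjusted p = 0.00431) and Oasl1 (-2.63 ± 0.62, adjusted p = 0.00147). Ifit3 has a close copy, Ifit3b, and reads can be split between them.

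Eif2ak2 and Adar had the smallest differences of the 10 from microglia in the dura and the choroid plexus. Eif2ak2 was at 71.9, 36.2, 48.02 and 56.01 CPM in MHC II-high dura and at 59.97, 33.2, 44.7 and 48.01 CPM in MHC II-low dura. Eif2ak2 was at 32.6, 34.9, 38.3 and 38.1 CPM in the choroid plexus. Microglia had 14.2, 11.4, 14.8 and 42.4 CPM of Eif2ak2, and peritoneal macrophages 59.95, 32.9, 33.7 and 46.5 CPM. Microglia 1, 3 and 4 lay below all other libraries, and microglia 5 lay among them. Eif2ak2 was called higher in MHC II-high dura (1.36 ± 0.34, adjusted p = 0.00257) and in peritoneal macrophages (1.07 ± 0.34, adjusted p = 0.0094), not in the choroid plexus (0.80 ± 0.34, adjusted p = 0.0671). Adar was at 107, 76.6 and 83.3 CPM in microglia 1, 3 and 4 and at 285 CPM in microglia 5, the highest of all 20 libraries. It was called in none of the 4 comparisons with microglia, with log2 fold changes from -0.22 ± 0.38 in peritoneal macrophages (adjusted p = 0.618) to 0.48 ± 0.38 in the choroid plexus (adjusted p = 0.342). Of Adar's exon length, 16.8% is shared with Chrnb2.

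The 3 members of the ISG15 system are Isg15, a ubiquitin-like protein joined to other proteins, Herc6, the ligase that joins it, and Usp18, the enzyme that removes it and dampens receptor signalling. All 3 were called higher in each dura population and none in the choroid plexus or in peritoneal macrophages, where 2 each were called without microglia 5. All genes were called higher at 15.7% in MHC II-high and 13.8% in MHC II-low dura. The choroid plexus and peritoneal shares were 12.1% and 18.9%, and 10.6% and 18.0% without microglia 5. Isg15 was at 73.3, 16.2, 58.5 and 51.9 CPM in MHC II-high dura and at 58.5, 20.1, 53.3 and 39.1 CPM in MHC II-low dura. Isg15 was at 20.99, 21.6, 27.6 and 35.5 CPM in the choroid plexus. Microglia had 3.26, 1.98, 3.59 and 22 CPM of Isg15, and peritoneal macrophages 20.4, 2.44, 7.07 and 14.5 CPM. Isg15, with 3 motif matches in its promoter, was lowest in replicate 2 within both dura populations and in peritoneal macrophages, and microglia 5 was at the level of the choroid plexus. It was called higher in MHC II-high dura (2.71 ± 0.74, adjusted p = 0.00556) and MHC II-low dura (2.48 ± 0.73, adjusted p = 0.00999) but not in the choroid plexus (1.79 ± 0.73, adjusted p = 0.0587), where leaving out microglia 5 gave a call (3.09 ± 0.67, adjusted p = 0.00165).

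Usp18 was at 219, 66.3, 168 and 140.2 CPM in MHC II-high dura and at 198, 95.7, 175 and 157 CPM in MHC II-low dura. Usp18 was at 113, 118, 133 and 115 CPM in the choroid plexus. Microglia had 11.8, 12.5, 18.1 and 122 CPM of Usp18, and peritoneal macrophages 64.02, 15.2, 21.6 and 57.8 CPM. Usp18 in microglia 5 was higher than in all peritoneal libraries and as high as in the choroid plexus. Its difference between peritoneal macrophages and microglia was -0.05 ± 0.66 (adjusted p = 0.958) with all libraries, and without microglia 5 it turned to the other sign and was called (1.45 ± 0.47, adjusted p = 0.0129). Against the border macrophages, peritoneal macrophages were lower for Usp18 (-1.83 ± 0.60, adjusted p = 0.0139) and Isg15 (-1.79 ± 0.63, adjusted p = 0.02). The first call was lost without peritoneal 3, and the second without peritoneal 2 or 3. Herc6 ranged from 22.2 to 116 CPM over the 20 libraries.

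The 9 antiviral proteins act at different steps of infection. Ifitm2 and Ifitm3 block viral entry at membranes, Bst2 (tetherin) holds back budding particles, Rsad2 (viperin) and Cmpk2 make antiviral nucleotides, Mx1 and Mx2 are dynamin-like proteins, Samd9l restrains poxviruses, and Ifi47 belongs to the immunity-related GTPases. All 9 were called higher than in microglia in each dura population, 7 in the choroid plexus and 6 in peritoneal macrophages, and 9, 9, 8 and 7 without microglia 5. For all genes the shares were 15.7% (MHC II-high), 13.8% (MHC II-low), 12.1% and 18.9%, and 14.0%, 12.4%, 10.6% and 18.0% without microglia 5. Ifitm3 had the highest level per exon kilobase of all members in both dura populations, the choroid plexus and peritoneal macrophages, at 808, 748, 484 and 1599 CPM per kb. Ifitm3 was at 729.6, 335, 523 and 603 CPM in MHC II-high dura and at 680.4, 317, 464 and 569 CPM in MHC II-low dura. Ifitm3 was at 286, 284, 367 and 377 CPM in the choroid plexus. Microglia had 15.6, 17.5, 15.7 and 104 CPM of Ifitm3, and peritoneal macrophages 1327, 767, 790.3 and 1452 CPM. All 4 peritoneal libraries were above all 12 border libraries, and every microglia library was below both. Ifitm3 was the 1 member called higher in peritoneal than in border macrophages (1.27 ± 0.39, adjusted p = 0.00955). Against microglia its difference in peritoneal macrophages was 4.82 ± 0.60 (adjusted p = 1.92e-06).

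Ifitm2 was at 214, 243, 283 and 233 CPM in MHC II-high dura and at 222, 233, 258 and 222 CPM in MHC II-low dura. Ifitm2 was at 165, 189, 258 and 204 CPM in the choroid plexus. Microglia had 2.88, 12.2, 3.07 and 1.98 CPM of Ifitm2, and peritoneal macrophages 354, 448, 463 and 378 CPM. Ifitm2 was the member that microglia 5 did not share: it was lowest there, and microglia 3 was the highest of the 4. Its differences from microglia were 6.35 ± 0.42 (adjusted p = 3.41e-10) in peritoneal macrophages, 5.59 ± 0.41 (adjusted p = 3.15e-09) in MHC II-high dura, 5.53 ± 0.41 (adjusted p = 3.83e-09) in MHC II-low dura and 5.33 ± 0.41 (adjusted p = 7.81e-09) in the choroid plexus. Peritoneal macrophages were above all 12 border libraries, and the difference passed on p but stayed under 2-fold (0.86 ± 0.26, adjusted p = 0.00717). Of Ifitm2's exon length 40.9% is shared with Gm45717, and Ifitm2 and Ifitm3 are close copies, so both levels are uncertain in their split.

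Ifi47 was at 359, 140.0, 221 and 183 CPM in MHC II-high dura and at 279, 142, 189 and 167 CPM in MHC II-low dura. Ifi47 was at 167, 133, 165 and 263 CPM in the choroid plexus. Microglia had 3.197, 3.27, 2.49 and 5.49 CPM of Ifi47, and peritoneal macrophages 332, 44.6, 57.3 and 116 CPM. Ifi47 was under 6 CPM in all microglia, and at 44.6 CPM or more in all others. The log2 fold change was 5.97 ± 0.64 (adjusted p = 6.62e-07) in MHC II-high dura, 5.75 ± 0.64 (adjusted p = 1.04e-06) in MHC II-low dura, 5.66 ± 0.63 (adjusted p = 1.65e-06) in the choroid plexus and 5.26 ± 0.62 (adjusted p = 1.11e-06) in peritoneal macrophages. Samd9l was at 307, 206, 275 and 291 CPM in MHC II-high dura and at 297, 182, 239 and 271 CPM in MHC II-low dura. Samd9l was at 113, 95.95, 94.4 and 96.1 CPM in the choroid plexus. Microglia had 5.14, 1.79, 1.505 and 15 CPM of Samd9l, and peritoneal macrophages 102, 78.8, 72.9 and 115 CPM. Samd9l fell into 3 levels, with the dura above the choroid plexus and peritoneal macrophages and all of them above microglia, and no overlap between the levels. It was higher than in microglia by 5.54 ± 0.52 (adjusted p = 1.14e-07) in MHC II-high dura, 5.41 ± 0.52 (adjusted p = 1.55e-07) in MHC II-low dura, 4.10 ± 0.49 (adjusted p = 3.30e-06) in the choroid plexus and 3.99 ± 0.49 (adjusted p = 1.53e-06) in peritoneal macrophages.

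Mx1 was at 28.6, 11.9, 52.4 and 43.1 CPM in MHC II-high dura and at 36.8, 31.1, 74.5 and 58.2 CPM in MHC II-low dura. Mx1 was at 11.4, 13.4, 12.4 and 15 CPM in the choroid plexus. Microglia had 4.33, 3.02, 3.88 and 17.97 CPM of Mx1, and peritoneal macrophages 29.1, 6.81, 8.79 and 13.97 CPM. Mx1 was low in all choroid plexus libraries, which overlapped with the dura only at MHC II-high dura 2. Mx2 was at 16.3, 4.68, 14.7 and 18.2 CPM in MHC II-high dura and at 12.2, 6.94, 20.8 and 20.6 CPM in MHC II-low dura. Mx2 was at 3.92, 5.14, 6.84 and 6.48 CPM in the choroid plexus. Microglia had 2.88, 3.83, 3.76 and 10.4 CPM of Mx2, and peritoneal macrophages 5.32, 1.97, 2.93 and 5.100 CPM. Mx2 was the lowest member of this group by mean CPM. Its choroid plexus libraries were within the range of all 4 microglia libraries, but all were above microglia 1, 3 and 4. Mx1 was called higher than in microglia in MHC II-high dura (2.23 ± 0.59, adjusted p = 0.00451) and MHC II-low dura (2.79 ± 0.60, adjusted p = 0.001), and Mx2 in MHC II-high dura (1.37 ± 0.46, adjusted p = 0.0181) and MHC II-low dura (1.54 ± 0.47, adjusted p = 0.01). C57BL/6 mice are known to carry a disrupted Mx1 gene, and the annotation lists Mx2 as a polymorphic pseudogene. Rsad2 was at 54.0 to 204 CPM in the dura, 51.5 to 63.1 CPM in the choroid plexus, 6.66 to 44.6 CPM in peritoneal macrophages and 2.53 to 4.40 CPM in microglia 1, 3 and 4. Bst2 was at 206 to 498 CPM in the dura, 233 to 307 CPM in the choroid plexus and 71.2 to 128 CPM in peritoneal macrophages, and at 57.0, 56.4, 59.6 and 192 CPM in microglia.

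The 9 other members include Lgals3bp, a secreted glycoprotein, the nuclear body protein Sp100, the ADP-ribosyltransferases Parp9 and Parp14, the chaperone Rtp4, and Trim30a, Xaf1, Ifi35 and Ifi44. Against microglia 3 of the 9 were called higher in the choroid plexus, 5 in each dura population and 2 in peritoneal macrophages, and 7, 8, 8 and 5 without microglia 5. Beside these stand 12.1%, 15.7% (MHC II-high), 13.8% (MHC II-low) and 18.9% of all genes, and 10.6%, 14.0%, 12.4% and 18.0% without microglia 5. The 2 of 9 in peritoneal macrophages are near the share of all genes. Lgals3bp was at 1353, 509, 650.1 and 874 CPM in MHC II-high dura and at 1365, 634, 803 and 1024 CPM in MHC II-low dura. Lgals3bp was at 932, 913, 1002 and 1061 CPM in the choroid plexus. Microglia had 346, 316, 343 and 2018 CPM of Lgals3bp, and peritoneal macrophages 1349, 764, 486 and 2086 CPM. Lgals3bp in microglia 5 was above 15 of the 16 libraries of the other populations, and 5.88 times the median of the other microglia. It was called in no comparison with microglia, and without microglia 5 in all 4, for example 1.77 ± 0.42 (adjusted p = 0.00133) in peritoneal macrophages. Ifi44 was at 36.8, 13.9, 27.1 and 33.2 CPM in MHC II-high dura and at 28.01, 13.98, 24.5 and 19.2 CPM in MHC II-low dura. Ifi44 was at 25.4, 20.6, 21.6 and 25.4 CPM in the choroid plexus. Microglia had 0.752, 0.741, 1.04 and 6.81 CPM of Ifi44, and peritoneal macrophages 9.19, 0.583, 0.517 and 11.3 CPM. Ifi44 was at 1.04 CPM or less in microglia 1, 3 and 4 and in peritoneal 2 and 3. It was higher than in microglia in MHC II-high dura (3.59 ± 0.88, adjusted p = 0.00267) and the choroid plexus (3.33 ± 0.88, adjusted p = 0.00569), and lower in peritoneal than in border macrophages (-2.16 ± 0.72, adjusted p = 0.0158). Sp100 and Rtp4 were called higher in all 4 populations, with Sp100 log2 fold changes from 1.82 ± 0.54 (adjusted p = 0.00647, peritoneal) to 2.55 ± 0.55 (adjusted p = 0.000942, MHC II-high dura).

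In microglia 5 most of the set was above the other microglia. Of the 40 members, 37 were at least 2-fold above the median of microglia 1, 3 and 4 on the log2(CPM + 0.5) scale, where 1.27% of all genes were. At least 4-fold was reached by 24 members, against 0.358% of all genes, and 39 were highest in microglia 5 among the 4, against 21.3%. The 5 largest ratios of CPM were those of Oas2 (36.0), Oasl2 (16.2), Zbp1 (13.9), Irf7 (11.9) and Rtp4 (11.4). The 3 members not reaching 2-fold were Oas3 at 1.45 against 0.617 to 0.926 CPM, Ifi47 at 5.49 against 2.49 to 3.27 CPM, and Ifitm2 at 1.98 against 2.88 to 12.2 CPM. Microglia 5 was above all 16 libraries of the other populations for 1 member, Adar, and below all 16 for 9, among them Oas2, Zbp1, Samd9l and Ifitm3. This is 1 library, so the ratios have no replicate check. It was singled out beforehand as high among microglia, so the shares above describe that choice and do not test it.

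**Figure D4:**
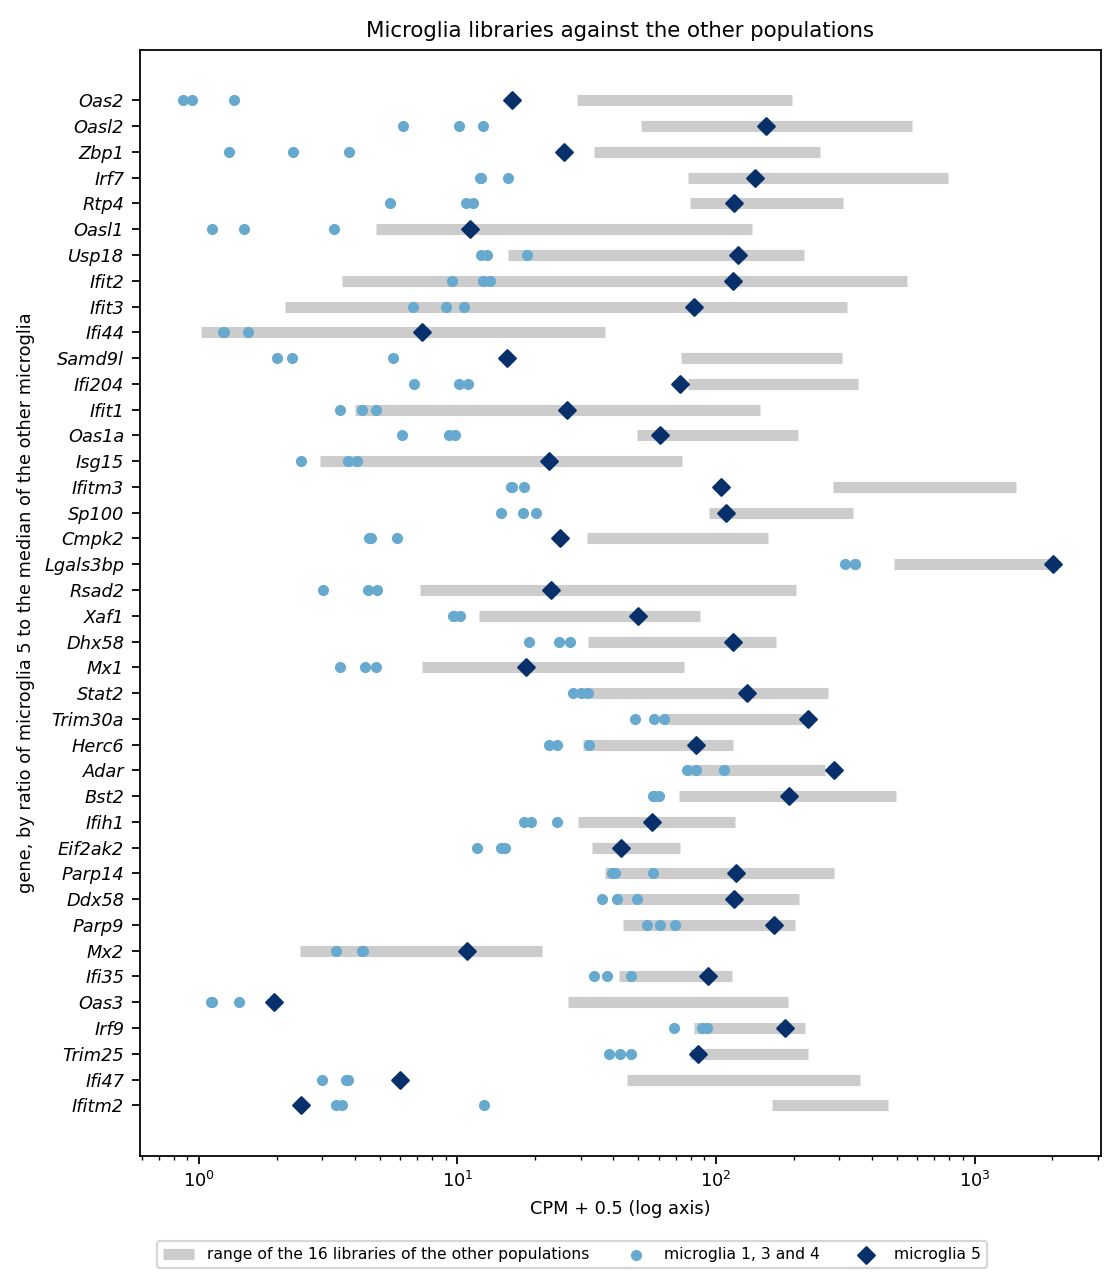
Level of each gene in the 4 microglia libraries (CPM + 0.5, log axis), with microglia 5 as diamonds, microglia 1, 3 and 4 as small points, and the range of the 16 libraries of the other populations as grey bars. Genes are ordered by the ratio of microglia 5 to the median of the other 3; Oas2 at the top has a ratio of 36.0, and Ifitm2 at the bottom lies lowest in microglia 5.

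Genes outside the set were also higher in that library. Of the 20 genes with the largest ratio there at 10 CPM or more, 14 were members. Among the largest of the others were Ifi27l2a, Slfn5, Pyhin1, Ifit3b, Gm4951, Gm5431, Phf11a, Nlrc5 and AI607873, with Ifi27l2a at 38.3 CPM against 2.90 to 3.07 CPM and Slfn5 at 132.5 CPM against 11.7 to 14.5 CPM. The summed level of 17 interferon-gamma GTPases and targets was 671 CPM against 272.5 to 367 CPM, and that of 12 class I presentation genes 6918 CPM against 3721 to 4705 CPM. The interferon ligand genes summed to 0.330 CPM there and to 0.124 to 0.579 CPM in the other microglia.

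Markers of other cells were also compared. The 5 microglia markers summed to 26611 CPM in microglia 5 against 23439 to 31599 CPM, and the 5 border macrophage markers to 18.4 CPM against 17.6 to 25.3 CPM. The T and NK cell markers summed to 0.198 CPM against 0.0617 to 0.347 CPM, with Cd3e, Cd3g and Nkg7 at 0 in all microglia. The neutrophil markers summed to 0.198 CPM against 0 to 0.0627 CPM, with S100a9, Retnlg and Camp at 0 in all microglia. The 5 monocyte markers summed to 11.6 CPM against 3.18 to 5.71 CPM, with Plac8 at 6.48 CPM against 0.247 to 0.637 CPM and Ly6c2 at 0.198 CPM against 0.0579 to 1.13 CPM. The plasmacytoid dendritic cell list summed to 324 CPM against 168 to 193 CPM; it holds Bst2, a member, and its markers Ly6d and Klk1 were at 0. The depth was 15312617 gene counts against 15740726 to 17156227. The part of these in the level of the members was not tested.

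Between the dura populations no member was called, in either direction, where 2.39% of all genes were called higher in MHC II-high dura and 1.48% lower. None had an unadjusted p under 0.05 in edgeR, DESeq2 called none, and none was called without microglia 5, where 2.35% of all genes were called higher. The log2 differences ran from -0.65 (Oas2) to 0.37 (Ifi44), with a median of 0.06 against 0.02 over all genes. No member separated the libraries of both populations, where 9.96% of all genes were wholly higher and 8.19% wholly lower. Within each population, however, replicates differed: libraries spread from 4313 to 10804 CPM in MHC II-high dura and from 4717 to 9865 CPM in MHC II-low dura in summed level. The same-numbered libraries lay at like positions. Replicate 2 was the lowest in both populations for 39 of the 40 members, against 8.96% of all genes tested, and replicate 1 the highest in both for 32, against 10.9%. Numbers 2 and 1 were picked from the levels of these members, so these counts only describe them. Whichever number it was, the lowest was the same in both for 40 members, against 32.6%, and the highest for 36, against 34.0%. The order of all 4 replicates was identical in both populations for 30 members, against 8.36% of all genes. The tests between the dura populations did not pair libraries by number. They count the spread shared by number as noise, so the absence of calls does not show that the populations are equal. With a term for replicate number added over all populations, still no member was called between the dura populations.

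Against the median of the other libraries of its group, MHC II-high dura 2 had 16 members at least 2-fold lower, against 3.21% of all genes, and MHC II-low dura 2 had 12, against 2.77%. Irf7 shows the span, with 791 and 518 CPM in replicate 1 and 133 and 163 CPM in replicate 2 of the MHC II-high and MHC II-low populations. The labels do not say whether dura libraries of 1 number come from the same animals, and over all genes same-numbered dura libraries deviated together only weakly, with correlations of 0.0067, 0.0758, 0.0403 and 0.11 for numbers 1 to 4. What the numbers share was not tested.

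**Figure D5:**
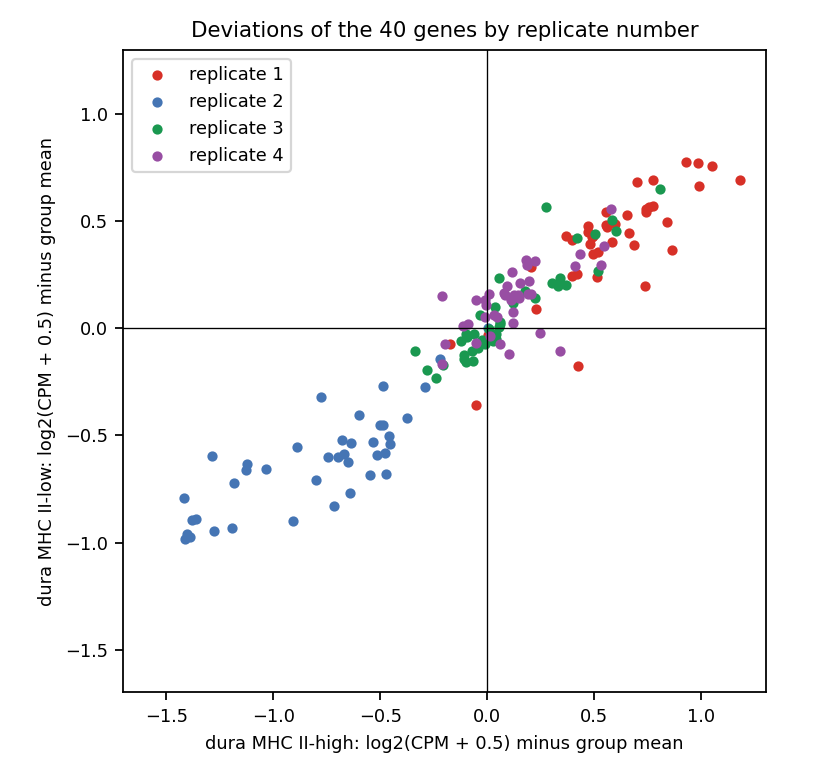
Deviation of each of the 40 genes from its group mean, in log2(CPM + 0.5), in MHC II-high dura (x axis) and MHC II-low dura (y axis), with 1 point per gene and replicate number. Replicate 2 lies at the lower left and replicate 1 mostly at the upper right; the points of 1 library share depth and scaling and are not independent.

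The summed levels of the choroid plexus libraries ran from 5324 to 6079 CPM. Compared with the mean of both dura populations, no member was called higher in the choroid plexus and 3 were called lower, where 8.90% and 3.95% of all genes were. The 3 were Mx1 (-1.66 ± 0.53, adjusted p = 0.0224), Samd9l (-1.37 ± 0.39, adjusted p = 0.012) and Mx2 (-1.35 ± 0.42, adjusted p = 0.0191). Only Samd9l was lower in all 4 choroid plexus libraries than in all 8 dura libraries, and only Irf9 was wholly higher, where 8.58% and 12.5% of all genes were. Mx1 and Mx2 lost their calls without choroid plexus 1 or 2, and Mx1 also without choroid plexus 3. Without microglia 5, which enters the shared estimate of the spread, 7 were called lower and none higher, against 3.91% and 9.21% of all genes, adding Oas2, Ifit1, Ifit2 and Rsad2. The median difference of the members was -0.40, against 0.02 over all genes.

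Peritoneal macrophages, compared with the mean of the border populations, had 13 members called lower and 1 called higher, where 21.6% and 11.4% of all genes were. The share called lower is thus 13 of 40 beside 21.6% of all genes, and the median difference was -0.74 beside -0.13. The 13 were Ifit2, Ifit3, Oasl1, Ifit1, Ifi44, Rsad2, Usp18, Isg15, Bst2, Mx2, Parp14, Xaf1 and Samd9l. The call of Xaf1 was lost without any of 13 libraries and that of Samd9l without any of 9. Libraries did not overlap for 10 members that were lower and 2 that were higher (Ifitm2 and Ifitm3), where 17.7% and 14.4% of all genes did not. Leaving out single libraries gave 9 (without peritoneal 3) to 17 (without peritoneal 1) members called lower. Immediate early and heat shock genes moved with this comparison: 10 of them summed to 752.5 to 972 CPM in peritoneal libraries and to 20774 to 46445 CPM in border libraries. Their part in the difference was not tested.

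Within peritoneal macrophages, libraries 1 and 4 were both above 2 and 3 for 39 of the 40 members, against 13.9% of all genes tested. The split was taken from the levels of these same members, so the count describes it and does not test it. Against the median of the other 3, 21 members were at least 2-fold higher in peritoneal 1 and 16 in peritoneal 4, against 2.82% and 1.93% of all genes. In peritoneal 2 and 3, 23 and 19 members were at least 2-fold lower, against 2.06% and 3.04%. The 1 exception to the split was Ifitm2, at 448 and 463 CPM in peritoneal 2 and 3 and at 354 and 378 CPM in 1 and 4. Some other genes moved with the split: Plac8, 1 of the 5 monocyte markers, was at 43.7, 0.401, 1.48 and 15.3 CPM, and the MHC class II gene H2-Aa at 659, 240, 63.4 and 431 CPM. All 5 monocyte markers summed to 48.6 to 212.6 CPM in the peritoneal libraries, so Plac8 was a minor part of that list. Depth was 27948494, 26986903, 27870610 and 23532894 gene counts. Their part in the split was not tested. Without peritoneal 1, the members called higher than in microglia were 13, and 1, Ifit2, was called lower.

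Other genes of the pathway came from lists that hold no member. Of 17 interferon-gamma GTPases and targets, 10 were called higher than in microglia in the choroid plexus, 15 in MHC II-high dura, 14 in MHC II-low dura and 12 in peritoneal macrophages, where 2 were lower. In that order 12.1%, 15.7%, 13.8% and 18.9% of all genes were called higher, and 25.7% were lower in peritoneal macrophages. Iigp1, an immunity-related GTPase, had log2 fold changes of 6.50 in the choroid plexus, 6.83 in MHC II-high dura, 7.13 in MHC II-low dura and 5.79 in peritoneal macrophages. Ciita, the switch for MHC class II genes, was at 145 to 191 CPM in MHC II-high dura, 82.6 to 130.1 CPM in the choroid plexus, 6.87 to 15.9 CPM in MHC II-low dura and at most 0.502 CPM in microglia. The 2 lower in peritoneal macrophages were the chemokines Cxcl9 and Cxcl10, at 0 to 0.104 and 0 to 1.07 CPM there. Between the dura populations 2 of the 17 were called, Ciita and Cxcl9, both higher in MHC II-high dura (log2 fold changes 4.04 and 2.61). There 2.39% of all genes were called higher.

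Of 8 receptor and kinase genes, Ifnar1, a chain of the type I interferon receptor, was called higher than in microglia in the choroid plexus (log2 fold change 1.67), MHC II-high dura (1.43) and MHC II-low dura (1.17), and Ifnar2 in the choroid plexus (1.07). Ifnar1 was at 310 to 395 CPM in the choroid plexus, 240 to 312 CPM in the dura, 96.9 to 134 CPM in peritoneal macrophages and 94.3 to 122 CPM in microglia. Microglia 5, at 102 CPM, was within the range of the others. Jak1, Jak2 and Tyk2 were called in none of the 4 comparisons with microglia. The interferon-gamma receptor genes Ifngr1 and Ifngr2 were called lower in peritoneal macrophages (-2.19 and -1.45). Of 12 class I presentation genes, 5, 7, 6 and 6 were called higher in the choroid plexus, MHC II-high dura, MHC II-low dura and peritoneal macrophages, and none lower. Higher calls were made for 12.1%, 15.7%, 13.8% and 18.9% of all genes, and lower ones for 7.11%, 12.2%, 12.7% and 25.7%. H2-D1 and H2-K1, which encode class I heavy chains, were called higher in all 4.

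Of 10 sensors and adaptors upstream of interferon, the calls lower than in microglia were 2 in the choroid plexus and in MHC II-high dura, 4 in MHC II-low dura and 7 in peritoneal macrophages, against 0, 1, 1 and 1 higher. In the same order, 7.11%, 12.2%, 12.7% and 25.7% of all genes were called lower, and 12.1%, 15.7%, 13.8% and 18.9% higher. Tmem173 (STING) had log2 fold changes of -1.28, -1.83, -1.98 and -4.36, and Tlr3 -1.67, -1.23, -1.68 and -2.78. The 1 higher was the kinase gene Ikbke (3.63 in MHC II-high dura, 3.43 in MHC II-low dura and 7.68 in peritoneal macrophages). Its mean was 4.29, 3.75 and 71.2 CPM there and 0.348 CPM in microglia, so these values rest on few microglial reads. The interferon ligand genes were at or near 0 in all populations: 1 of 10, Ifnb1, passed the filter, with at most 1.25 CPM in any library, and it was called lower in peritoneal macrophages, where it was at 0 in all 4 libraries, than in microglia. Of 9 negative regulators, 3, 4, 4 and 3 were called higher and 1, 0, 0 and 2 lower than in microglia, with Samhd1 higher in all 4 populations. The shares of all genes given above apply here too, and 2 of 9 lower in peritoneal macrophages is near the 25.7% of all genes. Of the 7 other interferon regulatory factors, Irf4 was called higher than in microglia in all 4 populations. Irf8 was called lower in MHC II-low dura (-1.03) and in peritoneal macrophages (-2.74). It passed on p but stayed under 2-fold in MHC II-high dura (-0.94, adjusted p = 1.05e-07) and the choroid plexus (-0.45, adjusted p = 0.000853).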

How the data were processed

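RNA of 5 mouse macrophage populations was sequenced in 4 libraries each. The deposited files hold raw counts of reads per gene, and per the submitters' processing notes the tools were SAMtools 0.1.18, TopHat2 2.1.0, Trimmomatic 0.38 and FastQC 0.11.4, with the genome build mm10. Which program counted the reads, with which annotation and strand setting, is not given in the sources used here. Rows naming no gene (5.67% to 13.1% without a feature, 0.836% to 1.51% ambiguous) were left out. Gene counts were fitted over all 20 libraries with edgeR 4.0.16 (R 4.3.3) by its quasi-likelihood test with 1 term per population, TMM scaling, filterByExpr and robust dispersion, and p-values were adjusted by the Benjamini-Hochberg method over all 13960 genes. A call needed an adjusted p under 0.05 and a 2-fold change. Standard errors are the log2 fold change divided by the square root of F. Log2 levels used 0.5 CPM as a pseudocount. The border mean averages the choroid plexus and both dura populations. The script was tested on simulated data. Alternatives were DESeq2 1.42.0, its size factors, no filter, the compared groups alone, a replicate block and leaving out each library. Groups and replicate numbers come from the labels.

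Named with every library's value were, per comparison and direction, the 5 called members with the largest change and, per role, those with the highest and lowest mean, and other pathway genes mainly where called. The members and lists were chosen with earlier results of these data known. Library pairs within a group differed by more than sampling noise. Gene annotation is GENCODE M21. The values of 1 gene outside the set are not reported here.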

Additional observations from a re-analysis of the deposited data

Results flagged for a closer look

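Some libraries stood apart from the other 3 of their group, with a gap to the nearest library, as a share of the group's range, above Dixon's critical value for 4 samples. Of 205 groups of 4 tested, 19 did so, where chance flags about 1 in 20 groups. The genes vary together in the same 20 libraries and are not independent, so this rate is no test of the number.

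Microglia 5 was the high library in 14 of them. That library was singled out beforehand as high among microglia, so its flags describe it and are no test. The gap was 0.9168 of the range for Stat2, 0.8972 for Irf7, 0.8426 for Ifit1, 0.8646 for Ifit2, 0.8456 for Oas2, 0.8547 for Cmpk2 and 0.9541 for Bst2. It was 0.9399 for Ifitm3, 0.8774 for Ifi44, 0.9669 for Xaf1, 0.8317 for Trim30a, 0.8471 for Sp100 and 0.951 for Lgals3bp, and 0.8956 for the summed level of the set.

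In the dura, Mx2 was low in MHC II-high dura 2 (0.8345) and Herc6 in MHC II-low dura 2 (0.8866). In the choroid plexus, Stat2 was high in replicate 4 (0.8453), Irf9 in replicate 3 (0.8447) and Samd9l in replicate 1 (0.9008).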

How the results depend on the processing

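DESeq2, its size factors and no filter left every count within 1.5 times of its value above. Leaving out microglia 5 moved the members called higher than in microglia to 36 in the choroid plexus and 28 in peritoneal macrophages, and those lower in the choroid plexus than in the dura to 7. Fitting only the compared groups gave 11 members called higher in peritoneal macrophages than in microglia, and 8 lower in the choroid plexus than in the dura. Leaving out each library gave 17 to 36 members higher in the choroid plexus, 28 to 37 in MHC II-high dura, 27 to 37 in MHC II-low dura and 13 to 28 in peritoneal macrophages than in microglia, with 0 to 1 lower in the last, 1 to 7 lower in the choroid plexus than in the dura, and 9 to 17 lower and 1 higher in peritoneal than in border macrophages. Of 280 values of a member in a comparison, 52 changed sign under at least 1 alternative, and none of these was called with all libraries. Without microglia 5, 8 did so, all between peritoneal macrophages and microglia (Irf9, Ifit2, Ifit3, Adar, Usp18, Mx2, Parp9 and Trim30a). Usp18, at -0.05, was the 1 that was also called after the change: it ranged from -0.40 (without microglia 1) to 1.45 (without microglia 5) with a library left out and was 1.56 with the replicate block.

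The replicate numbers were not taken as pairing: over all genes, deviations of 36 same-numbered pairs correlated from -0.132 to 0.11, with 1 over 0.1. This reason does not cover the members in the dura, where 30 had the same order of all 4 numbers in both populations. With the block, 38 members were higher in the choroid plexus and 30 in peritoneal macrophages than in microglia, and 7 lower in the choroid plexus than in the dura. Between the dura populations the block still gave no call of a member. Number 5 exists only in microglia, so the block takes microglia 5 out of the comparison.

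At 4-fold in place of 2-fold, members apart from their group numbered 24 above in microglia 5 (0.358% of all genes), 8 above in peritoneal 1 (0.351%), 6 above in peritoneal 4 (0.186%), 8 below in peritoneal 2 (0.165%) and 5 below in peritoneal 3 (0.380%), and 0 in the dura libraries and microglia 1, 3 and 4. With 1 mismatch the response element was in 28 members and the gamma-activated site in 26. Depth limits members near 1 CPM, such as Oas3 in microglia.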
